A study of Rattus norvegicus with 12 samples.

Results

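Transcripts of 7 genes of lipoprotein transport were followed in rat liver: Apoa1, Apoa2, Apoa4, Apoc3, Apoe and Apob, which encode protein parts of lipoprotein particles, and Apobec1, which encodes the enzyme that edits apolipoprotein B mRNA. They are 7 of 4736 genes with a symbol and were represented by 15 of the 8740 probe sets tested, chosen because the array's annotation gives each of these probe sets a single symbol and that symbol is 1 of the 7. Apob had 5 probe sets, Apoc3 had 3, Apoa1 and Apoe had 2 each, and Apoa2, Apoa4 and Apobec1 had 1 each. All animals were male Sprague-Dawley rats that weighed 150 g at the start and were overfed by 17% of calories for 21 days by total enteral nutrition, the infusion of a liquid diet into the stomach. The groups were 70% corn oil, 5% corn oil, 70% olive oil and 5% olive oil, with 3 arrays each. The diets were isocaloric, so that carbohydrate was lower where fat was higher. Each array held RNA from a pool, the labels do not give the number of rats per pool, and p-values measure the spread between pools.

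Apolipoproteins A-I and A-II are structural proteins of high-density lipoprotein, apolipoprotein A-IV travels on triglyceride-rich particles and high-density lipoprotein, C-III slows the clearance of triglyceride-rich particles, and E is a ligand for their uptake by receptors. Apolipoprotein B forms the scaffold of very-low-density lipoprotein, which carries triglyceride out of the liver. Apobec1 deaminates a cytidine in the Apob message, which creates a stop codon and yields the shorter form B-48, and in rats this takes place in the liver as well as in the intestine. The diets differed in the level of fat and in its type, and the comparisons ask whether transcripts of this export route differ with them. Carbohydrate was lower where fat was higher, so contrasts between fat levels cannot separate these nutrients. The part of each nutrient was not tested. A fat effect below means a difference between diets of high and low fat, with the carbohydrate change included.

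On the log2 scale used here, 0 is a probe set's own median across the 12 arrays, so values show which arrays were higher or lower and give no absolute level, and levels of different genes cannot be compared. For the same reason the presence of liver markers such as albumin cannot be judged. A positive difference means more in 70% than in 5% fat, or more with corn than with olive oil. Errors beside differences are standard errors (SE) of the limma model, and a probe set was called when its p-value, adjusted by the Benjamini-Hochberg method over all 8740 probe sets, was under 0.05.

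Apoa4 and Apobec1 were the members called between fat levels, and the stretches around their annotated transcription starts are shown for that reason. Both come from the RefSeq annotation of the GRCr8 assembly and run from 250 bases before the start to 50 after it. Of the 7 genes, Apoa4, Apobec1 and Apoe had an entry in the table of such stretches. Capitals mark matches to the motifs searched. The Apoa4 stretch is chr8:55435529-55435828 on the plus strand, and the Apobec1 stretch is chr4:157487552-157487851 on the minus strand.
Apoa4: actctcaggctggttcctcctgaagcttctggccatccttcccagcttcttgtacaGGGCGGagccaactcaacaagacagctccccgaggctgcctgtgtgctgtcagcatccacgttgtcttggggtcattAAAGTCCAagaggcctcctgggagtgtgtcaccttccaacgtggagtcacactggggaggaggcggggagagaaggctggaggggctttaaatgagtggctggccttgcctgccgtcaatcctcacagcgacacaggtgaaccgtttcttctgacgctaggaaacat
Apobec1: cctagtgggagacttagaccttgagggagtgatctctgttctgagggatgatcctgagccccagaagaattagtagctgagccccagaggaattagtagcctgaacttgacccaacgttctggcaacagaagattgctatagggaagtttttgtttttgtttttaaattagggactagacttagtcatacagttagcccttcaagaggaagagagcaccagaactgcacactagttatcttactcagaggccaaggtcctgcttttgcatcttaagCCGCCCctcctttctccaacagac
The 4 motifs were searched on both strands and were chosen after these sequences had been seen. AAAGTCCA, letters at the core of sites bound by HNF4A, began 117 bases before the start of Apoa4 and was found in 1.37% of all 33469 stretches of this length in the table. GGGCGG, the GC box, began 194 bases before the start of Apoa4. On the opposite strand of Apobec1, as CCGCCC, it began 27 bases after the start, and 33.1% of all stretches held it. AGGTCA, the core letters that many nuclear receptors bind, was found in neither stretch and in 16.2% of all, and CACGTG, a palindromic E-box, in neither and in 6.42% of all. In the same annotation Apoa1, Apoc3 and Apoa4 are consecutive genes on chromosome 8.

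Apoa4 fell at 70% fat with both oils. In the corn oil arrays it was at -1.26, -1.22 and -1.06 with 70% fat, against -0.012, 0.012 and 0.11 with 5% fat. All 3 arrays of the high-fat group lay below all 3 of the low-fat group, and by a wide margin. The log2 difference was -1.22 ± 0.17 (SE, 95% confidence interval -1.60 to -0.84), a 2.33-fold lower level, with a limma adjusted p of 0.00362. Apoa4 was the 1 member of 15 called with corn oil, where 2.11% of all probe sets were called.

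In the olive oil arrays Apoa4 was at -0.82, -0.077 and 0.032 with 70% fat, against 0.86, 0.73 and 0.78 with 5% fat. The groups again did not overlap, but pool 1 of the high-fat group lay far below the other pools of its group. The difference was -1.08 ± 0.17 (95% confidence interval -1.46 to -0.70), a 2.12-fold lower level (limma adjusted p = 0.0191). Without that pool 1 it was -0.81 (limma adjusted p = 0.00821). The call was lost without pool 1 of 5% olive oil (limma adjusted p = 0.104) or its pool 3 (0.0716), and in a fit on the olive oil arrays alone (0.0675). Apoa4 and Apobec1 were the 2 of 15 member probe sets called with olive oil, both lower, where 0.435% of all probe sets were called and 0.309% were called lower. They were also the 2 members whose olive oil groups did not overlap, as 19.8% of all probe sets did not. Enterocyte markers, listed because Apoa4 is made mainly in the intestine, had 0 of 9 probe sets called by limma between fat levels with either oil. Of the 9, 1 and 2 had an unadjusted limma p under 0.05 for corn and olive oil, as did 18.8% and 8.46% of all probe sets.

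The fall of Apoa4 did not differ detectably between the oils: the corn oil fat effect minus the olive oil fat effect was -0.14, with a 95% confidence interval from -0.67 to 0.40 (limma adjusted p = 0.884). The mean of both fat effects was -1.15 ± 0.12 (limma adjusted p = 0.000386). A second quantile normalization ended the call in each oil (limma adjusted p = 0.0956 with corn and 0.0538 with olive oil) and left that of the mean (0.00658). The group means ran from 0.79 in 5% olive oil through 0.037 in 5% corn oil and -0.29 in 70% olive oil to -1.18 in 70% corn oil. The 2 middle groups overlapped. The probe set ranged over 2.12 log2 units, more than 97.2% of all probe sets, whose median range was 0.562.

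**Figure D1:**
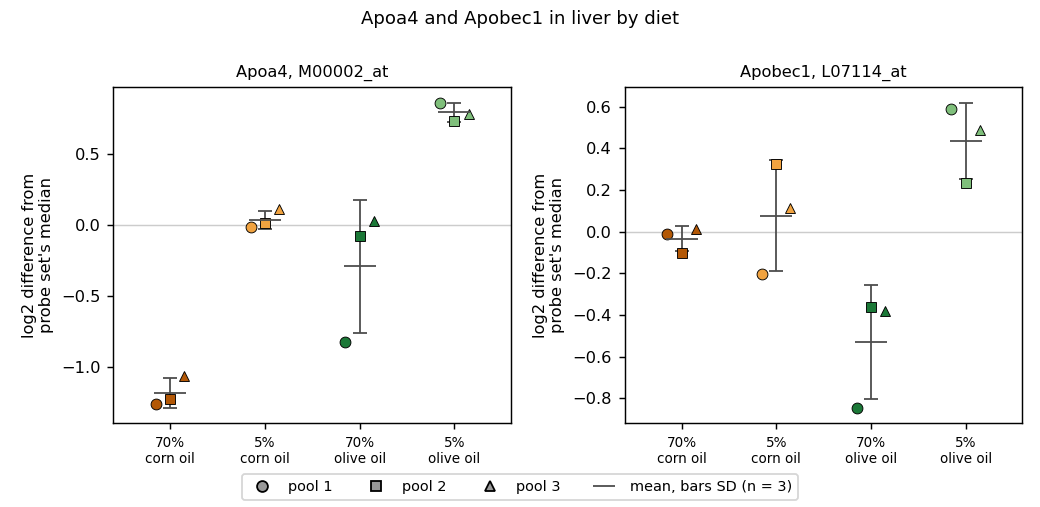
Values of the Apoa4 and Apobec1 probe sets on each array (vertical axis, log2, with 0 at the median of the 12 arrays) by diet, with pools as symbols, horizontal lines for group means and bars for SD (n = 3). Apoa4 is lower at 70% than at 5% fat with both oils; for Apobec1 the 3 arrays of 70% olive oil, from -0.85 to -0.36, lie below all 9 others.

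Apobec1 fell at 70% fat with olive oil. It was at -0.85, -0.36 and -0.38 with 70% olive oil, against 0.59, 0.24 and 0.49 with 5% olive oil. The groups did not overlap, and the 3 arrays of 70% olive oil were the lowest of all 12. The difference was -0.97 ± 0.16 (95% confidence interval -1.31 to -0.63), a 1.95-fold lower level (limma adjusted p = 0.0191). Without pool 1 of 70% olive oil it was -0.81 (limma adjusted p = 0.0951), and the call was also lost without pool 1 (0.117) or pool 3 (0.0834) of 5% olive oil.

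With corn oil Apobec1 was at -0.011, -0.10 and 0.011 with 70% fat, against -0.20, 0.32 and 0.11 with 5% fat. These groups overlapped, and the difference was -0.11 ± 0.16 (95% confidence interval -0.45 to 0.23; limma adjusted p = 0.763). The fat effect with corn oil minus that with olive oil was 0.86 ± 0.22 (95% confidence interval 0.37 to 1.34), with an unadjusted p of 0.00222 and a limma adjusted p of 0.288, so a difference between the oils did not pass the test. In that test 0% of all 8740 probe sets were called, while 11.8% had an unadjusted p under 0.05, among them 3 of the 15 members: Apobec1 and both probe sets of Apoa1. The mean of both fat effects on Apobec1 was -0.54 ± 0.11 (limma adjusted p = 0.0243), which makes Apoa4 and Apobec1 the 2 of 15 members called for the mean, where 2.28% of all probe sets were called. The group means of Apobec1 were 0.44 in 5% olive oil, 0.078 in 5% corn oil, -0.034 in 70% corn oil and -0.53 in 70% olive oil, and of these neighbours only the last pair did not overlap. The call of Apobec1 for the mean ended when a measure of RNA and labelling quality, the 3'/5' index, was added as a covariate (-0.56, limma adjusted p = 0.0741). It was also lost without pool 2 of 70% corn oil, pool 2 of 5% corn oil, pool 1 of 70% olive oil or pool 1 or 3 of 5% olive oil, with limma adjusted p up to 0.0699.

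Apobec1 is in mouse also expressed in macrophages, and markers of these cells were measured for that reason. Of 16 Kupffer cell and macrophage markers 9 were measured, by 18 probe sets. Their mean per array ran from -0.38 to -0.18 in 70% olive oil, against 0.014 to 0.34 in 5% olive oil, without overlap. With corn oil it ran from -0.15 to 0.15 at 70% fat and from -0.16 to 0.24 at 5% fat. In the olive oil fat contrast 1 of the 18 probe sets was called lower and 0 higher, where 0.309% of all probe sets were called lower, and their median difference was -0.34, against 0.028 over all probe sets. The 1 was Ctss, a lysosomal protease, at -0.66, -0.56 and -0.51 with 70% olive oil, against 0.58, 0.16 and 0.39 with 5% olive oil (difference -0.96 ± 0.16, limma adjusted p = 0.0259). Not all markers of the list fell. Cd14 was higher without overlap, at 0.56, 0.67 and 0.63 with 70% olive oil, against 0.40, 0.40 and -0.22 with 5% olive oil, and was not called. Low values in 70% olive oil were not particular to this list. Of 6 endothelial markers 4 were measured, by 5 probe sets. Their mean per array ran from -0.403 to -0.2512 in 70% olive oil, against -0.2545 to 0.128 in 5% olive oil, with overlap. In that contrast 0 of the 5 were called by limma, where 0.435% of all probe sets were called. The part of these markers in the result for Apobec1 was not tested, and in bulk liver fewer cells of a type and less RNA per cell cannot be told apart.

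**Figure D2:**
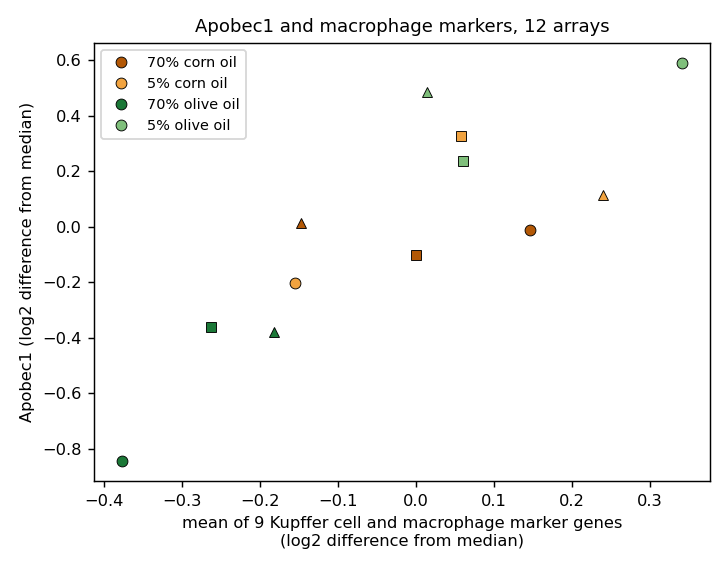
Apobec1 (vertical axis) against the mean of 9 measured Kupffer cell and macrophage marker genes (horizontal axis) on the 12 arrays, both as log2 differences from the median; colours are diets, and circles, squares and triangles are pools 1, 2 and 3. The 3 arrays of 70% olive oil lie lowest on both axes, with marker means from -0.38 to -0.18.

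The known partners of the editing enzyme were sparsely covered. Of 8 listed, Hnrnpab and Celf2 were measured, and 0 of their 3 probe sets was called by limma in any of the 6 contrasts, nor had any an unadjusted p under 0.05. Hnrnpab, an RNA-binding protein, differed by 0.094 ± 0.10 with olive oil (limma adjusted p = 0.918), and Celf2 by 0.11 ± 0.13 (0.918).

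The other apolipoprotein probe sets were not called between fat levels. Over the 15 member probe sets the median difference was -0.026 with corn oil, against -0.0075 over all probe sets, and -0.023 with olive oil, against 0.028 over all. Both probe sets of Apoa1 were higher in every 70% corn oil array than in any 5% corn oil array. The probe set J02597cds_s_at of Apoa1 was at -0.38, -0.021 and 0.050 with 70% corn oil, against -0.50, -0.61 and -0.61 with 5% corn oil. Its difference was 0.46 ± 0.14 (limma adjusted p = 0.106). The other probe set, M00001_i_at, differed by 0.40 ± 0.17 (limma adjusted p = 0.227). Neither passed the test, and 18.9% of all probe sets had groups that did not overlap in this contrast, as did 4 of the 15 members. With olive oil the Apoa1 probe sets differed by -0.15 ± 0.14 and -0.18 ± 0.17 with overlapping groups. The fat effect with corn oil minus that with olive oil was 0.61 ± 0.19 and 0.58 ± 0.24 for the Apoa1 probe sets, and neither passed (limma adjusted p = 0.340 and 0.388).

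Apoe varied least of the members. The fat effects on the Apoe probe set S76779_s_at were 0.024 ± 0.090 with corn oil and -0.023 ± 0.090 with olive oil, and those on X04979_at were -0.020 ± 0.080 and 0.0018 ± 0.080. At their widest the 4 confidence intervals ran from -0.22 to 0.22. Apoa2 differed by -0.074 ± 0.11 with corn oil and by -0.16 ± 0.11 with olive oil, and its interval reached down to -0.40 with olive oil. The Apoe probe sets ranged over 0.377 and 0.359 log2 units across the 12 arrays, more than 17.4% and 14.3% of all probe sets.

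Apoc3 had no probe set called between fat levels. Its probe sets J02596cds_at and J02596cds_g_at differed by 0.024 ± 0.10 and -0.084 ± 0.094 with corn oil, and by 0.041 ± 0.10 and 0.034 ± 0.094 with olive oil. The probe set rc_AI169758_at of Apoc3 was at -0.052, -0.023 and -0.10 with 70% corn oil, against 0.38, 0.10 and -0.019 with 5% corn oil. These groups were separate by a narrow margin, and the difference of -0.21 ± 0.11 did not pass the test (limma adjusted p = 0.315).

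Of the 5 Apob probe sets M21842_at had the lowest fat effect with corn oil, at -0.84 ± 0.26 (limma adjusted p = 0.118). It was at 0.57, -0.076 and 0.034 with 70% corn oil, against 1.57, 0.97 and 0.50 with 5% corn oil, and the groups overlapped. The other 4 Apob probe sets ran from -0.26 to 0.23 with corn oil, and all 5 from -0.027 to 0.19 with olive oil. Leaving out 1 array added a call with corn oil in 2 cases: Apoa1 without pool 1 of 70% corn oil, and Apob without pool 3 of 5% corn oil.

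**Figure D3:**
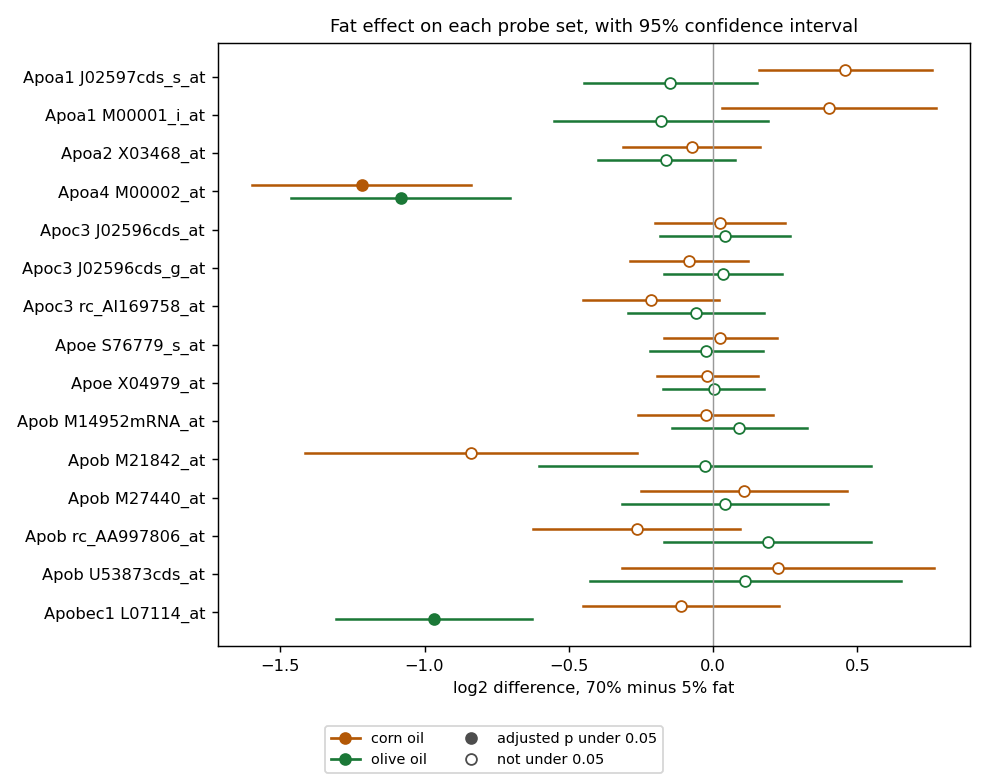
Fat effect (horizontal axis, log2 difference of 70% minus 5% fat) on each of the 15 probe sets in corn oil and olive oil diets, with 95% confidence intervals; filled points had an adjusted p under 0.05. Apoa4 is called with both oils and Apobec1 with olive oil, while both Apoe probe sets lie between -0.023 and 0.024.

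Before the oils are compared, a property of the arrays has to be given. The 3'/5' index takes the array's control transcripts actin and GAPDH and averages the value of the probe set near the 3' end minus that of the one near the 5' end. Both values are centred, so the index shows which arrays were higher or lower and its 0 and its sign have no meaning of their own. It is a common measure of how intact the RNA was and how far labelling reached. It averaged 0.71 ± 0.48 in 70% corn oil, 1.28 ± 0.28 in 5% corn oil, -0.35 ± 0.10 in 70% olive oil and -0.36 ± 0.058 in 5% olive oil (SD, n = 3 each). All corn oil arrays, from 0.16 to 1.502, lay above all olive oil arrays, from -0.43 to -0.23 (difference 1.35, exact permutation test, two-sided, p = 0.00217, the smallest possible here). The oil and the index cannot be told apart on these arrays. For the index, the difference of 70% minus 5% fat was -0.56 in corn oil arrays and 0.018 in olive oil arrays. Exact permutation tests, two-sided, gave p = 0.2 and 0.8, where 0.1 is the smallest possible. With it as a covariate the fat effect on Apoa4 was -1.29 ± 0.23 with corn oil (limma adjusted p = 0.0444) and -1.08 ± 0.18 with olive oil (0.0190), and that on Apobec1 with olive oil was -0.97 ± 0.16 (0.0199).

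Between oils at 70% fat, 3 of 15 member probe sets were called, all lower with corn oil, where 8.51% of all probe sets were called and 4.55% were called lower. They were Apoa4 at -0.89 ± 0.17 (limma adjusted p = 0.0103), the Apob probe set U53873cds_at at -1.11 ± 0.25 (0.0186) and the Apoc3 probe set J02596cds_at at -0.37 ± 0.10 (0.0481). The call of Apoc3 was lost in 5 of 7 alternative settings and without any 1 of 9 arrays, all but pool 2 of 70% corn oil, pool 1 of 5% corn oil and pool 3 of 5% olive oil. The call of Apoa4 held in 4 of 7 settings and without any 1 array. That of Apob held in 5 of 7 and was lost without any 1 of 4 arrays, pools 1 and 3 of 70% corn oil and pools 2 and 3 of 70% olive oil, with limma adjusted p up to 0.0760. For Apoc3 the values were -0.13, 0.0074 and -0.20 with 70% corn oil, against 0.27, 0.29 and 0.22 with 70% olive oil. Apobec1 was higher in each 70% corn oil array than in any 70% olive oil array, with a difference of 0.50 ± 0.16 that did not pass the test (limma adjusted p = 0.0726). It passed in 2 of 7 alternative settings, a second quantile normalization (0.68, limma adjusted p = 0.0213) and trend with robust moderation (0.0496), and without pool 1 of 5% corn oil (0.0486). Arrays of the 2 oils did not overlap for 9 of the 15 members, and for 27.2% of all probe sets.

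At 5% fat, 6 of 15 member probe sets were called between oils, 4 lower and 2 higher with corn oil, where 19.5% of all probe sets were called, 9.36% lower and 10.1% higher. Apoa4 was at -0.76 ± 0.17 (limma adjusted p = 0.00969), with values of -0.012, 0.012 and 0.11 with corn oil, against 0.86, 0.73 and 0.78 with olive oil. This call ended after a second quantile normalization (-0.79, limma adjusted p = 0.0595). Apoa1, by its probe set J02597cds_s_at, was at -0.77 ± 0.14 (limma adjusted p = 0.00231), and its other probe set M00001_i_at was at -0.44 ± 0.17 (0.0930). The Apoa1 values for J02597cds_s_at were -0.50, -0.61 and -0.61 with 5% corn oil, against 0.021, 0.10 and 0.46 with 5% olive oil. Apoc3, by J02596cds_at, was at -0.35 ± 0.10 (limma adjusted p = 0.0325), while its other probe sets J02596cds_g_at and rc_AI169758_at were at -0.083 ± 0.094 and 0.11 ± 0.11. The remaining 3 calls were probe sets of Apob. Arrays of the oils did not overlap for 8 of the 15 members, and for 41.3% of all probe sets. Removing any 1 of 4 arrays, pools 2 and 3 of 5% corn oil and pools 1 and 2 of 5% olive oil, ended the call of Apoc3 (limma adjusted p at most 0.136), as did a fit on the arrays of both groups alone (0.0674) and 1 value per gene (0.493). Apobec1 differed by -0.36 ± 0.16 with overlapping groups (limma adjusted p = 0.134).

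The probe sets of Apob disagreed about the oils. M21842_at was at 1.57, 0.97 and 0.50 with 5% corn oil, against -0.67, -0.064 and 0.069 with 5% olive oil, a difference of 1.23 ± 0.26 (limma adjusted p = 0.00656). The Apob probe set rc_AA997806_at was at 0.72, 0.53 and 0.30 with 5% corn oil, against -0.70, -0.63 and -0.043 with 5% olive oil, a difference of 0.97 ± 0.16 (limma adjusted p = 0.00168). U53873cds_at went the other way, at -0.69, -0.33 and -0.56 with 5% corn oil, against 0.17, 0.71 and 1.22 with 5% olive oil, a difference of -1.23 ± 0.25 (limma adjusted p = 0.00459). None of these 3 had overlapping groups. The other Apob probe sets, M14952mRNA_at and M27440_at, were at -0.15 ± 0.11 and -0.17 ± 0.16, and neither passed.

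At 70% fat these 3 Apob probe sets had the same signs, with U53873cds_at at -0.32, -0.17 and -0.42 with corn oil, against 0.36, 0.83 and 1.24 with olive oil. The Apob probe set rc_AA997806_at was at 0.52 ± 0.16 (limma adjusted p = 0.0739) and M21842_at at 0.42 ± 0.26 (0.382). The value for rc_AA997806_at passed on the arrays of both groups alone and without pool 2 of 70% corn oil or pool 3 of 5% olive oil. Over the 12 arrays, which share the groups and the index, M21842_at and rc_AA997806_at correlated with each other at r = 0.86 and with U53873cds_at at r = -0.61 and -0.70. The mean of the 5 Apob probe sets differed by 0.13 ± 0.14 between oils at 5% fat and by -0.11 ± 0.14 at 70% fat, so that 1 value per gene had no call. The labels and annotation do not give the place of each probe set along the long Apob transcript.

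The 3'/5' index was highest in pool 1 of 5% corn oil, at 1.502. That array also had the highest value of both M21842_at and rc_AA997806_at of Apob and the lowest of U53873cds_at. Between the other pools of 5% corn oil U53873cds_at did not follow the index, at -0.33 in pool 2 (index 1.36) and -0.56 in pool 3 (index 0.967). Over the olive oil arrays it ran from 0.17 to 1.24, while the index stayed between -0.43 and -0.23. Within 70% corn oil the index was highest in pool 3 (1.035, against 0.95 in pool 1). There rc_AA997806_at was highest in pool 3 (0.36) and U53873cds_at lowest (-0.42). M21842_at was highest in pool 1 instead, at 0.57 against 0.034 in pool 3. With the index as a covariate the oil effects at 5% fat were 0.20 ± 0.65 for M21842_at of Apob, 0.34 ± 0.41 for rc_AA997806_at of Apob and -0.57 ± 0.65 for U53873cds_at of Apob. For Apoa4 the effect was -0.55 ± 0.48 and for Apoa1, by J02597cds_s_at, -0.55 ± 0.37. None of the members was called between oils in that fit at either fat level, nor was any of the 8740 probe sets. The index and the oil overlap almost fully in that model, and the standard errors were larger for these members (0.37 to 0.65, against 0.14 to 0.26 without it). The part of the index in the oil effects was not tested.

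Marker lists of several cell types also had calls between oils. Of the 18 Kupffer cell and macrophage probe sets, 3 were called higher and 1 lower with corn oil at 70% fat. Over all probe sets 3.96% were called higher and 4.55% lower there. At 5% fat 2 of the 18 were called higher and 4 lower, where 10.1% of all were called higher and 9.36% lower. Of 9 hepatocyte markers 8 were measured, by 19 probe sets, of which 5 were called lower and 0 higher with corn oil at 5% fat (9.36% of all probe sets were called lower), with a median difference of -0.037 against 0.056 over all. At 70% fat 1 of the 19 was called lower and 0 higher, where 4.55% of all were called lower. The median of the 19 was then -0.016, against 0.015 over all. The hepatocyte mean per array ran from -0.28 to -0.12 with 5% corn oil, against 0.019 to 0.072 with 5% olive oil, without overlap. Of 8 stellate cell markers 6 were measured, by 15 probe sets. With corn oil 6 of the 15 were called higher and 0 lower at 5% fat, where 10.1% of all were called higher. At 70% fat 1 was called higher and 0 lower, where 3.96% of all were called higher. The median of the 15 at 5% fat was 0.22, against 0.056 over all. Col1a1, a collagen chain, was at 2.29 ± 0.40 (limma adjusted p = 0.00210) at 5% fat by M27207mRNA_s_at. Its probe set Z78279_g_at overlapped, at 0.11, 0.075 and -0.14 with 5% corn oil, against -0.28, -0.12 and -0.21 with 5% olive oil. Dcn, a matrix proteoglycan, was at 1.19 ± 0.19 (limma adjusted p = 0.00140) by X59859_i_at at 5% fat. Its other probe sets called were at 0.76 ± 0.16 and 0.83 ± 0.20. The stellate cell mean per array ran from 0.089 to 0.32 with 5% corn oil, against -0.30 to -0.038 with 5% olive oil, also without overlap. Of 7 enterocyte markers 5 were measured, by 9 probe sets, of which 2 were called lower and 0 higher with corn oil at each fat level, the direction of Apoa4. Over all probe sets 4.55% were called lower at 70% fat and 9.36% at 5% fat. At 70% fat the 2 called were Fabp2, a fatty acid binding protein, and Anpep, an aminopeptidase, by AF039890mRNA_s_at. The Anpep probe set M25073_at went the other way without overlap, at 0.38, 0.35 and 0.30 with 70% corn oil, against -0.072, 0.072 and 0.26 with 70% olive oil. At 5% fat the 2 called were Cdh17, a cadherin, and Fabp2, whose groups overlapped there. The Lct probe set X56747cds_at was higher in 5% corn oil, at 0.28, 0.059 and 0.057, against -0.0017, -0.0099 and -0.10 in 5% olive oil. Fabp2 was at -0.66 ± 0.17 at 70% fat (limma adjusted p = 0.0341) and -0.60 ± 0.17 at 5% fat (0.0285). The median of the 9 was -0.10 at 70% fat and 0.0080 at 5% fat. The enterocyte mean per array ran from -0.26 to -0.11 with 5% corn oil, against 0.11 to 0.15 with 5% olive oil, without overlap, and the 70% fat groups overlapped. The part of these markers in the oil effects was not tested.

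**Figure D4:**
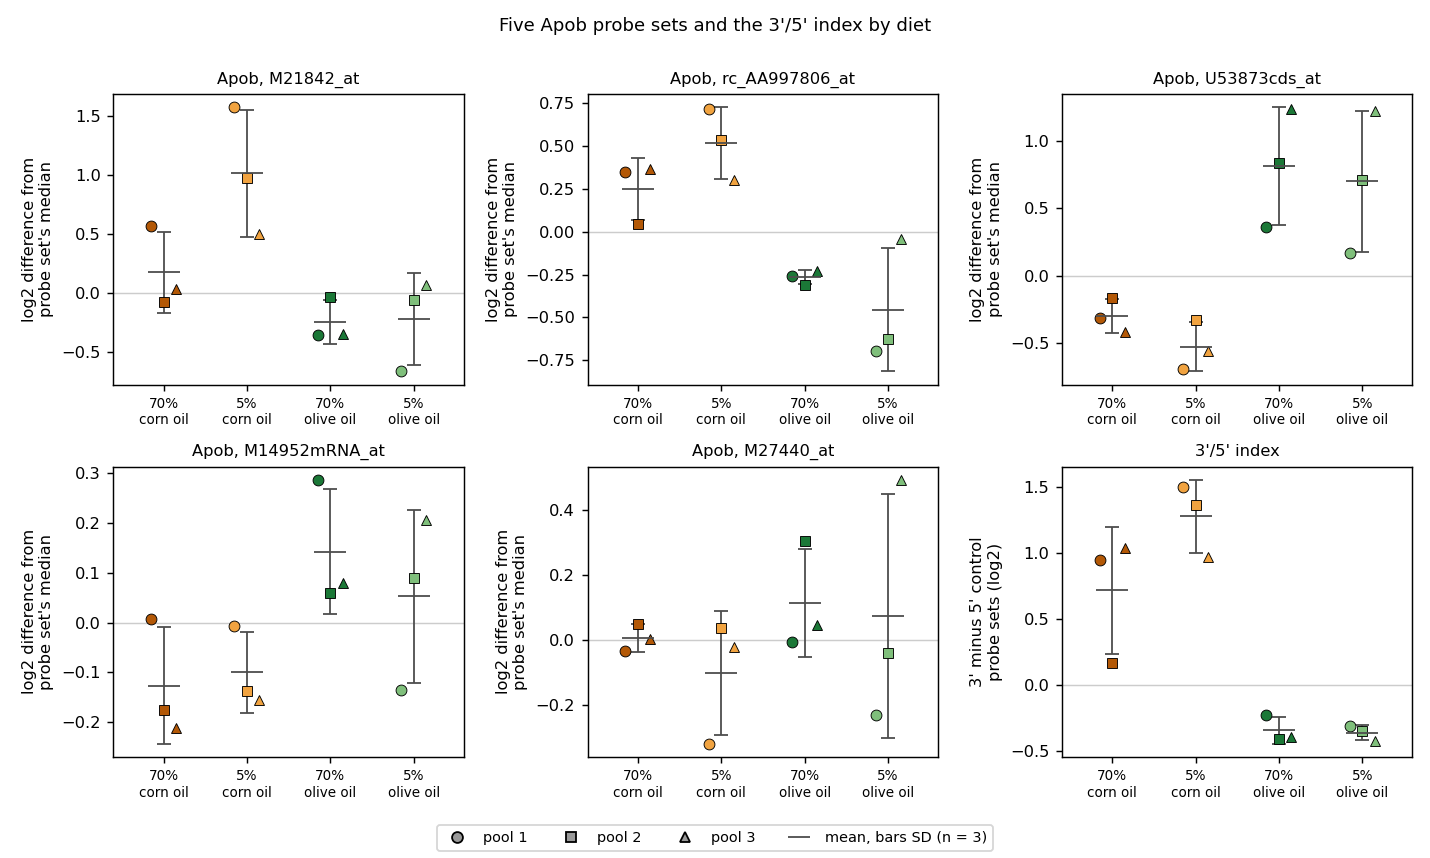
Values of the 5 Apob probe sets and the 3'/5' index on each array (vertical axes, log2 scale) by diet, with pools as symbols, horizontal lines for group means and bars for SD (n = 3). M21842_at and rc_AA997806_at are higher, and U53873cds_at lower, on the 5% corn oil arrays than on the 5% olive oil arrays, and the index is higher on all corn oil arrays (0.16 to 1.502) than on all olive oil arrays (-0.43 to -0.23).

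Apoe, which had 2 probe sets, showed opposite small differences between oils. X04979_at was higher with corn oil, by 0.14 ± 0.080 at 70% fat and 0.17 ± 0.080 at 5% fat, and S76779_s_at of Apoe was at -0.073 ± 0.090 and -0.12 ± 0.090. None passed the test. Apoa2 differed between oils by 0.058 ± 0.11 at 70% fat and by -0.030 ± 0.11 at 5% fat (limma adjusted p = 0.817 and 0.880).

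**Figure D5:**
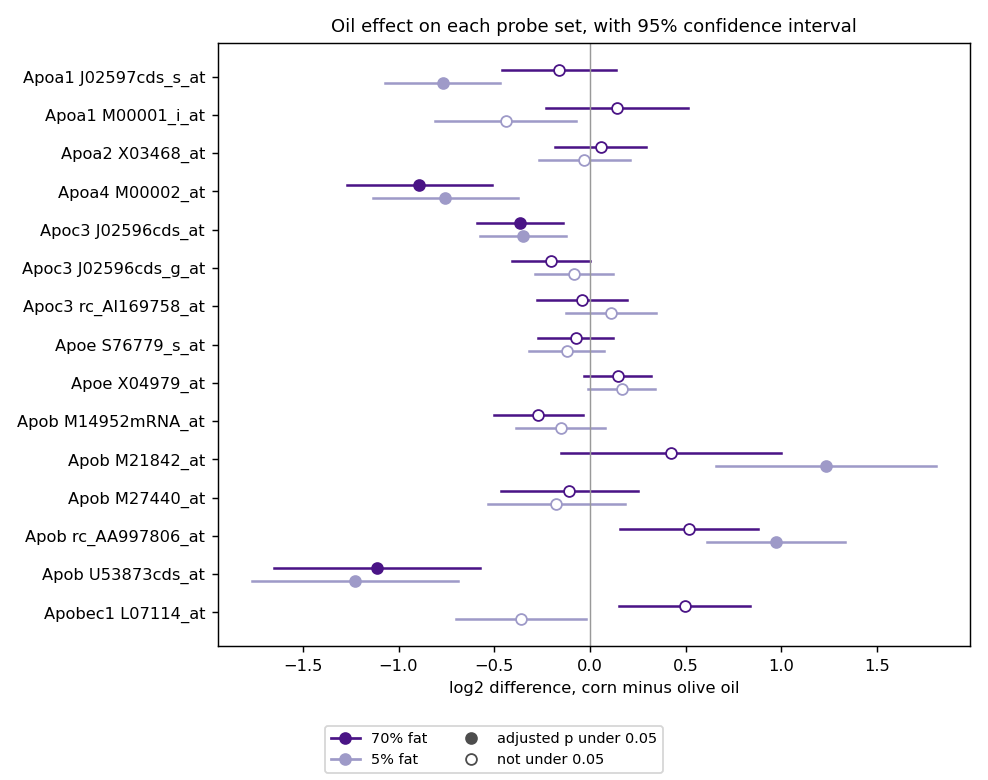
Oil effect (horizontal axis, log2 difference of corn minus olive oil) on each of the 15 probe sets at 70% and at 5% fat, with 95% confidence intervals; filled points had an adjusted p under 0.05. Apob probe sets lie on both sides of 0, from -1.23 to 1.23 at 5% fat.

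Of 46 other genes of lipoprotein assembly and turnover 20 were measured, by 37 probe sets. With corn oil 1 of the 37 rose and 0 fell, where 2.11% of all probe sets were called, and their median difference was -0.030, against -0.0075 over all probe sets. The 1 was D89655_at of Scarb1, the receptor for high-density lipoprotein, at -0.15, 0.32 and 0.0030 with 70% corn oil, against -0.54, -0.71 and -0.65 with 5% corn oil (difference 0.69 ± 0.15, limma adjusted p = 0.0371). The Scarb1 probe set AF071495_s_at was not called and its groups overlapped, at -0.78, -0.0002 and -1.06 with 70% corn oil, against -1.08, -1.08 and -0.86 with 5% corn oil. With olive oil 0 were called by limma, where 0.435% of all were called, and 4 had an unadjusted p under 0.05, as did 8.46% of all. For the mean of both fat effects 1 rose, of Sdc1, a heparan sulphate proteoglycan that binds remnant particles, at 0.47 ± 0.091 (limma adjusted p = 0.0192). Between oils 3 of the 37 were higher and 2 lower with corn oil at 70% fat, where 8.51% of all probe sets were called. At 5% fat 5 were higher and 9 lower, where 10.1% of all were called higher and 9.36% lower. Lipa, the lysosomal acid lipase, was higher with corn oil at 70% fat by 1.18 ± 0.21 and 0.75 ± 0.14 in its 2 probe sets called. Scarb1 was lower by its probe set AF071495_s_at, at -1.17 ± 0.22. Its probe set D89655_at overlapped, at -0.15, 0.32 and 0.0030 with 70% corn oil, against -0.0030, 0.20 and 0.19 with 70% olive oil. P4hb was lower by M21476_s_at, at -2.19 ± 0.47 at 70% fat (limma adjusted p = 0.0160) and -3.52 ± 0.47 at 5% fat (0.000496). The P4hb probe set X02918_at had a smaller difference, -0.74 ± 0.16 at 5% fat (limma adjusted p = 0.00772), and was not called at 70% fat. In pools 1, 2 and 3 of 70% corn oil M21476_s_at was at -2.15, -0.31 and -2.86, and the 3'/5' index at 0.95, 0.16 and 1.035. The part of the index in this result was not tested.

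Among 30 regulators of apolipoprotein genes, 24 were measured, by 39 probe sets. With corn oil 1 rose at 70% fat and 0 fell, against 2.11% called over all probe sets. With olive oil 0 were called by limma, where 0.435% of all were called. In that contrast 8 of the 39 had an unadjusted limma p under 0.05, as did 8.46% of all probe sets. The 1 was Rxrg, by AF016387_at, a retinoid X receptor that pairs with other nuclear receptors, at -0.082, 0.074 and -0.13 with 70% corn oil, against -0.82, -0.71 and -0.62 with 5% corn oil (difference 0.67 ± 0.086, limma adjusted p = 0.00199). By AF016387_at the Rxrg fat effect with olive oil was 0.33 ± 0.086 (limma adjusted p = 0.178). The Rxrg probe set AJ223083_at was called with neither oil. Its corn oil groups overlapped, at -0.41, -0.11 and -0.93 with 70% fat, against -0.75, -0.74 and -0.58 with 5% fat. Its olive oil groups did not, at 0.70, 0.74 and 0.44 with 70% fat, against 0.39, 0.34 and 0.11 with 5% fat. Between oils 3 of the 39 were higher and 7 lower with corn oil at 70% fat, where 8.51% of all probe sets were called, 4.55% lower. At 5% fat 3 were higher and 10 lower, where 10.1% of all were called higher and 9.36% lower. Cebpa, a factor of hepatocyte genes, was at -0.83 ± 0.12 at 5% fat (limma adjusted p = 0.000859), and Sp1, which binds GC boxes, at -0.56 ± 0.11 at 70% fat (0.00997). None of these calls between oils remained with the index as a covariate.

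The genes whose profiles over the 12 arrays were most like those of the members differed from member to member. For Apoa4 they were Slc2a5, the fructose transporter (Pearson r = 0.94), Mdh1, the cytosolic malate dehydrogenase (0.92), and Acly, which makes cytosolic acetyl-CoA (0.90). For Apobec1 they were RT1-DMb, which acts in loading of class II molecules (r = 0.92), Cavin3, a caveolar protein (0.92), and Ctss (0.89). For the Apoa1 probe set called they were Snx4 (r = 0.95), Gnl3 (0.94) and Rpl3 (0.93), and for the Apoc3 probe set called Srebf1 (0.96), St13 (0.95) and Ppat (0.94). For the Apob probe set rc_AA997806_at they were Col5a2 (r = 0.96), Ptprr (0.95) and Pld2 (0.95). These are descriptions over arrays that share diets and index, picked as the highest values among all named probe sets.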

How the data were processed

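Liver RNA pools of 4 diets were hybridised to 12 single-colour Affymetrix arrays, after labelling of 8 ug of total RNA with biotin, per the labels' protocols. The deposited table holds log2 values of 8799 probe sets, which the authors made with GCOS and RMA, per the submitters' processing notes, with no version given. The base of the logarithm is not written in the table and was taken as 2. For 100% of probe sets the 12 values had a median of 0, within 1e-06, so the deposited values are centred, and no filter on dim probe sets could be applied. Of the probe sets, 59 controls were left out. Exactly 1 symbol was annotated for 7006 probe sets, several for 308 and none for 1426. Through the gene identifier 6985 took the GRCr8 symbol.

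Differences were tested with limma 3.58.1 in R 4.3.3. The model gave each diet a mean, and all 12 arrays shared 1 estimate of the spread with 8 residual degrees of freedom. P-values are two-sided and adjusted over 8740 probe sets within each of 6 contrasts. A member is a probe set, and 1 value per gene, the mean of its probe sets, was an alternative over 4736 genes. The others were a second quantile normalization, centring of arrays, trend with robust moderation, the pool number as a block, the 3'/5' index as a covariate, the arrays of both groups alone and leaving out each array. Other genes were named by rule: in each list and contrast up to 4 with the smallest adjusted p, or 2 where none passed, and the 3 with the highest r. The text names a part of them. Members, lists and alternatives were chosen with earlier results of these data known. No pair of arrays was a duplicate (closest pair 0.195 log2, root mean square). The code was tested on simulated data. The number of arrays limits the precision. There were 0 columns of other samples.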

Additional observations from a re-analysis of the deposited data

How the results depend on the processing

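The number of member probe sets called depended on the setting, and the cause was not tested. With corn oil 1 was called between fat levels, 0 after a second quantile normalization and 1 to 2 without 1 array. With olive oil 2 were called, 1 after a second quantile normalization, 1 in a fit on the arrays of both groups alone and 0 to 2 without 1 array. For the mean of both fat effects 2 were called, 1 with a 3'/5' index covariate and 1 to 2 without 1 array. Between oils at 70% fat 3 were called, 0 with the index, 1 with 1 value per gene and 1 to 4 without 1 array. At 5% fat 6 were called, 0 with the index, 3 with 1 value per gene and 5 to 6 without 1 array. Those 3 stand for the genes Apoa1 and Apoa4, as both Apoa1 probe sets take the 1 value of their gene. The interaction had 0 in all settings run. The Apob probe set U53873cds_at changed sign between oils at 5% fat with 1 value per gene (0.13, limma adjusted p = 0.592), by construction, since that value averages 5 probe sets that disagree. Over all probe sets the fat effect with corn oil had 184 calls, 51 after a second quantile normalization, 40 with the index and 53 on the arrays of both groups alone. With olive oil these were 38, 98, 64 and 97, and 22 with each array centred. The mean of both fat effects had 199 calls and 123 with the index. Between oils the counts were 744 at 70% and 1704 at 5% fat, 0 with the index at each, and 334 at 70% fat on the arrays of both groups alone. Without 1 array the counts over all probe sets ran from 59 to 348 for the fat effect with corn oil, 10 to 69 with olive oil, 116 to 233 for the mean, 311 to 1162 and 1115 to 2065 between oils at 70% and 5% fat, and 0 to 10 for the interaction. Pool numbers did not pair the arrays: deviations of arrays of the same number in different diets correlated from -0.19 to 0.23, and 4 of 12 arrays correlated best with their own number. With the pool number as a block the member counts were 1, 2, 2, 3 and 7 in the order given above, the 7 against 6 without the block. No filter on dim probe sets, background correction or scan date could be tried, because the values are centred and no scanner data were used.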
